A study of Takifugu obscurus and Periophthalmus magnuspinnatus and Gallus gallus with 6 samples.

Results

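The genes that build cholesterol and the lipids of myelin were followed across the cell classes of fugu and chicken spinal cord. The list held 32 symbols. A row of the count tables was a member where its symbol, in capitals, was listed, and 1 trailing A or B was ignored where the full symbol was not listed. This gave 34 rows in fugu, of 21383 genes, and 29 rows in chicken, of 17007 genes. In fugu, SQLE, CYP51A1, CYP51 and FADS2 were not analysed here, and in chicken IDI1, EBP and CYP51 were not analysed here. Fish copies of a gene, such as cers2a and cers2b, count as members of their own. The rule itself uses symbols and no measured value.

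Spinal cord cells were measured by single-cell RNA-seq with 10x 3' chemistry, in 2 libraries of fugu and 2 of chicken. Each library pooled the cord of several animals, and live cells were sorted by exclusion of propidium iodide. The fugu were about 1 month past hatching and are labelled Takifugu obscurus, while the methods describe a cross with Takifugu rubripes. The chicken (Gallus gallus) were embryos of day 10 to 11, Hamburger-Hamilton stage 36 to 37. No animal was treated or mutant, so the groups are cell classes within a species, and species, age and growth cannot be told apart. Mudskipper genes carry no symbols here, so that species was not used.

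Myelin is stacked membrane, rich in cholesterol and in galactolipids. Cholesterol is made from acetyl-CoA. The mevalonate steps lead to farnesyl pyrophosphate, which is joined to itself to give squalene, and squalene is closed to a ring and trimmed in the endoplasmic reticulum. The transcription factor SREBP2, made from SREBF2, drives these genes when sterols are scarce, SREBP1, from SREBF1, acts mainly on genes of fatty acids, and INSIG1 holds both back in the endoplasmic reticulum. Elongases lengthen fatty acids to very long chains, which ceramide synthase 2 (CERS2) places in ceramide. UGT8 then adds galactose to form galactosylceramide, and GAL3ST1 adds sulfate to form sulfatide. In mammals, oligodendrocytes make much of their own cholesterol, and astrocytes make cholesterol that other cells can take up.

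Barcodes with more than 3000 unique molecular identifiers (UMIs, captured RNA molecules) in fugu and more than 5000 and 5500 in the chicken libraries were kept. After doublets were removed, 2556 and 2519 fugu cells and 7626 and 7743 chicken cells remained, with a median of 5386 and 5455 UMIs and of 12124.5 and 12440 UMIs. The libraries held 25763932 and 25721131 UMIs in fugu and 129947198 and 131974386 in chicken. They shared 0 and 17 barcodes. Cells were clustered without the lipid genes, and clusters were named from marker genes. Levels are CPM, the count scaled to a fixed library total, of the UMIs summed over a class in a library, given for library 1 and then library 2. With 2 libraries, a library is the replicate, and the animals in it cannot be separated.

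The fugu myelinating class held 1235 and 1117 cells and was led by gjb1a, cd59a, plp1b, hapln2 and mbpa. The fugu astrocyte-like class held 295 and 329 cells and was led by slc1a2b and gja1b. No fugu cluster was named a precursor by the fixed markers, so the committed precursor class, led by gpr17, prdm8b and sox8, stood in for it with 62 and 43 cells. That class carried 3 of 11 precursor markers. A cluster of 141 and 95 cells, led by c1ql4b with sema5a and PLXNB1 and placed under the radial glia panel of the study, carried 7 of 11 precursor markers and 6 of 10 committed precursor markers, and the comparison with precursors was repeated with it. In chicken, the myelinating class held 842 and 1110 cells in 2 clusters. Cluster 6 was led by PLLP and TMEM125, with CLDN11 and ENPP6, in mammals a marker of newly formed oligodendrocytes, among its leading genes, and cluster 8 had SLC46A3, ERMN and MBP among its own. The precursor class, with PDGFRA and LHFPL3 among its leading genes, held 589 and 403 cells, the cycling precursor class 661 and 685, and the astrocyte-like class, led by RXFP1, ASS1 and SMOC1 with SLC6A11, SLC1A2 and SLC1A3, 1259 and 1345. The astrocyte marker list summed to 7443 and 7808 CPM in fugu myelinating cells, against 47090 and 44540 CPM in astrocyte-like cells. In chicken it summed to 2305 and 1938 CPM in myelinating cells, against 34360 and 36440 CPM in astrocyte-like cells. The myelin marker list summed to 137700 and 138800 CPM in fugu myelinating cells and to 44500 and 42770 CPM in chicken myelinating cells. These sums cover 21 features in fugu and 16 in chicken and were not compared between species. Committed precursor markers summed to 9576 and 9197 CPM in chicken myelinating cells, against 10710 and 10370 CPM in committed precursors. In fugu they summed to 1186 and 1282 CPM in myelinating cells, against 5244 and 5429 CPM in committed precursors. The classes named myelinating in the 2 species may thus differ in stage, which was not tested. Myelin markers stood at 3770 and 4099 CPM in fugu astrocyte-like cells and at 398 and 540 CPM in chicken astrocyte-like cells. Astrocyte transcripts in myelinating cells, and the reverse, move with the class, and their part in the results was not tested.

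Summed as a whole, the sterol arm peaked in astrocyte-like cells in fugu and in myelinating cells in chicken. In chicken its mevalonate part alone did so. In fugu, the 15 rows from HMGCS1 to DHCR7 summed to 489 and 531 CPM in myelinating cells, to 517 and 511 CPM in committed precursors and to 2131 and 2674 CPM in astrocyte-like cells. Astrocyte-like cells thus stood above every other fugu class, since the classes not named here lay between 129 CPM in T or NK-like cells and 397 CPM in cycling cells. In chicken, the same arm, here 14 rows, summed to 6302 and 5841 CPM in myelinating cells, to 1354 and 1443 CPM in precursors and to 5421 and 4219 CPM in astrocyte-like cells. Chicken myelinating and astrocyte-like cells were the 2 classes with the highest sterol sums. Other chicken cells with astrocyte markers had less, at 2398 and 1886 CPM in cycling astrocyte-like cells and 1751 and 1841 CPM in the AQP1-led cluster 3. The myelinating and astrocyte-like libraries did not overlap, with the lower myelinating library at 5841 CPM and the higher astrocyte-like library at 5421 CPM. Myelinating cluster 8 alone, at 5022 and 5099 CPM, lay below that astrocyte-like library. The mevalonate rows summed to 3237 and 3034 CPM in myelinating cells, against 1719 and 1386 CPM in astrocyte-like cells. The rows from squalene on summed to 3065 and 2807 CPM in myelinating cells, against 3702 and 2833 CPM in astrocyte-like cells.

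The sphingolipid genes, summed, were highest in myelinating cells in both species, and most of the sum in those cells was UGT8. Their sum was 2418 and 2373 CPM in fugu myelinating cells, 1540 and 1517 CPM in committed precursors and 102 and 90.9 CPM in astrocyte-like cells. In chicken it was 4141 and 4519 CPM in myelinating cells, 268 and 320 CPM in precursors and 57.0 and 57.1 CPM in astrocyte-like cells. The fatty acid genes summed to 3203 and 3453 CPM in fugu myelinating cells, against 488 and 577 CPM in astrocyte-like cells. In chicken they summed to 2160 and 2059 CPM in myelinating cells, against 2672 and 2075 CPM in astrocyte-like cells, where FADS2 alone gave 1613 and 1243 CPM. Free RNA, read from barcodes of at most 100 UMIs, held sterol sums of 459 and 550 CPM in fugu and of 2337 and 2347 CPM in chicken. The fugu myelinating libraries thus lay within the range of free RNA for this arm, and every chicken lineage class short of myelinating lay below it. Fugu neuron-like cells, at 298 and 317 CPM, lay below it as well. Such levels give the make-up of free RNA and not the amount in a cell, so its part in these sums was not tested.

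**Figure D1:**
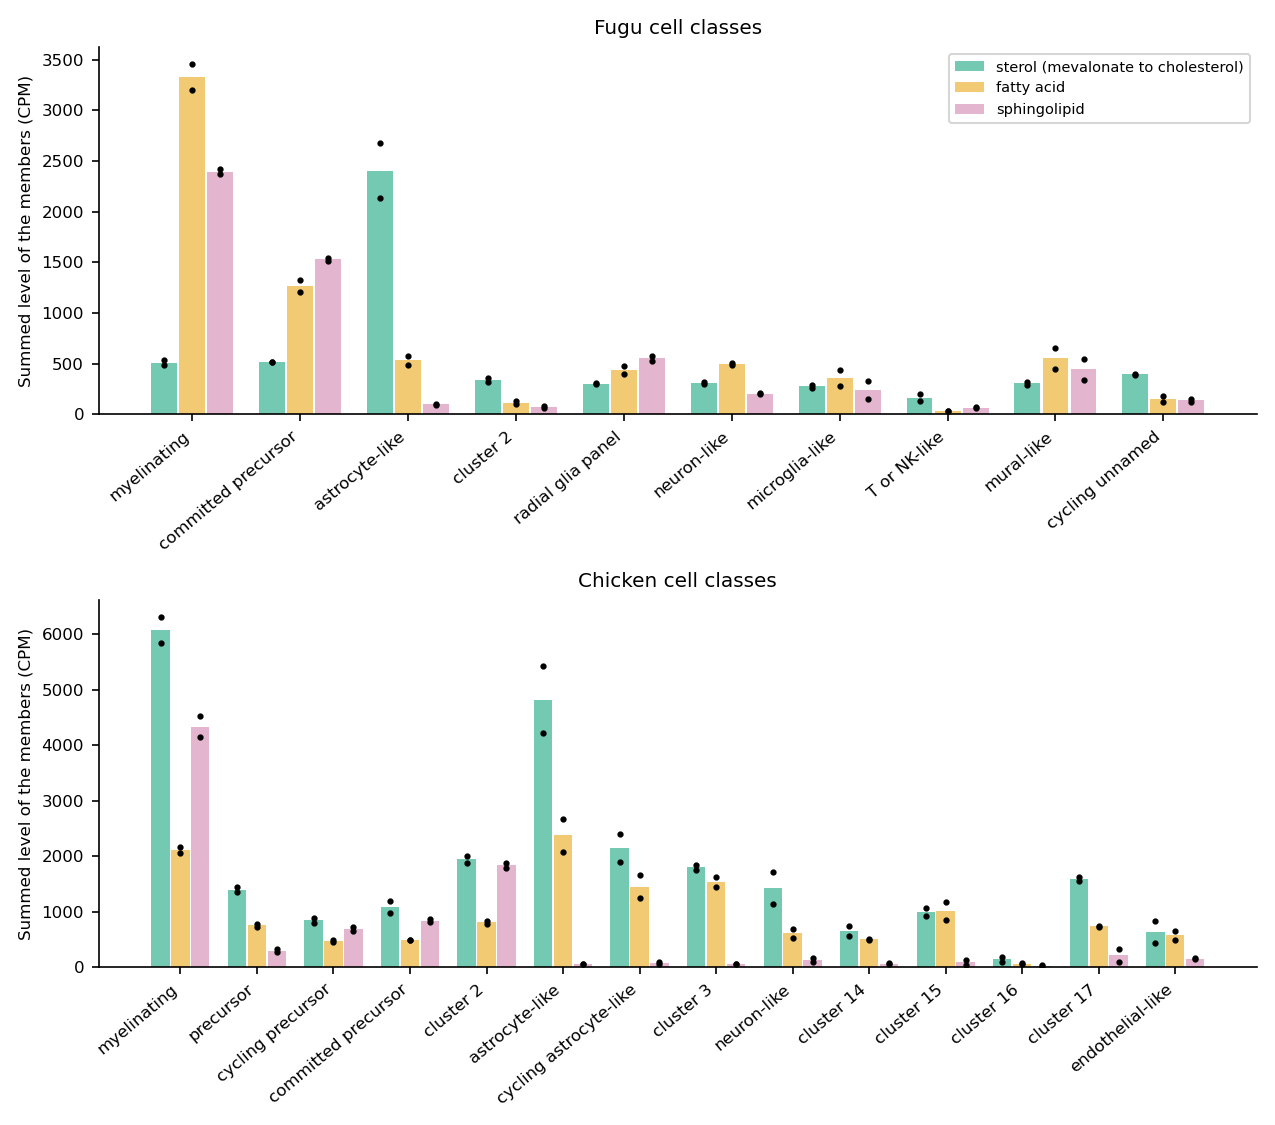
Summed levels in CPM (vertical axes) of the sterol, fatty acid and sphingolipid members in each cell class of fugu (top) and chicken (bottom). Bars are means of 2 libraries and points are the libraries. In fugu the sterol bar peaks in astrocyte-like cells (2131 and 2674 CPM), and in chicken it is high in myelinating cells (6302 and 5841 CPM) and astrocyte-like cells (5421 and 4219 CPM).

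Myelinating cells were compared with astrocyte-like cells in each species by edgeR's quasi-likelihood test on counts summed per library and class, with Benjamini-Hochberg adjustment over all genes tested. Calls needed an adjusted p below 0.05 together with a fold change larger than 0.25 on the log2 scale. Genes averaging at least 5 CPM over the sums were tested, 11695 in fugu and 10687 in chicken. All 29 chicken members passed this filter, and 30 of 34 fugu members did. The fold changes include TMM scaling, under which the median gene's level differed by 0.03 in fugu and by -0.03 in chicken on the log2 scale. With plain totals it differed by -0.16 and by -0.29, and by -0.41 between chicken myelinating cells and precursors, so values in CPM lean lower in myelinating cells than the fitted ones.

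In fugu, 17 of the 30 tested members were lower and 11 were higher in myelinating than in astrocyte-like cells. The lower ones include sc5d and elovl5, which passed the filter through their level in astrocyte-like cells. Of all genes tested in that comparison, 27.1% were lower and 23.5% higher, against 56.7% and 36.7% of the members. The median member stood at -0.95, against 0.02 for all genes. In chicken, 18 of 29 members were higher and 5 lower, which is 62.1% and 17.2%, against 33.2% and 36.8% of all genes. The median chicken member stood at 0.91, against -0.03 for all genes. The members split by role. All 6 mevalonate and 7 of 8 later sterol genes were lower in fugu, while 4 of 5 and 5 of 9 were higher in chicken. All 6 sphingolipid rows in fugu and all 4 in chicken were higher.

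**Figure D2:**
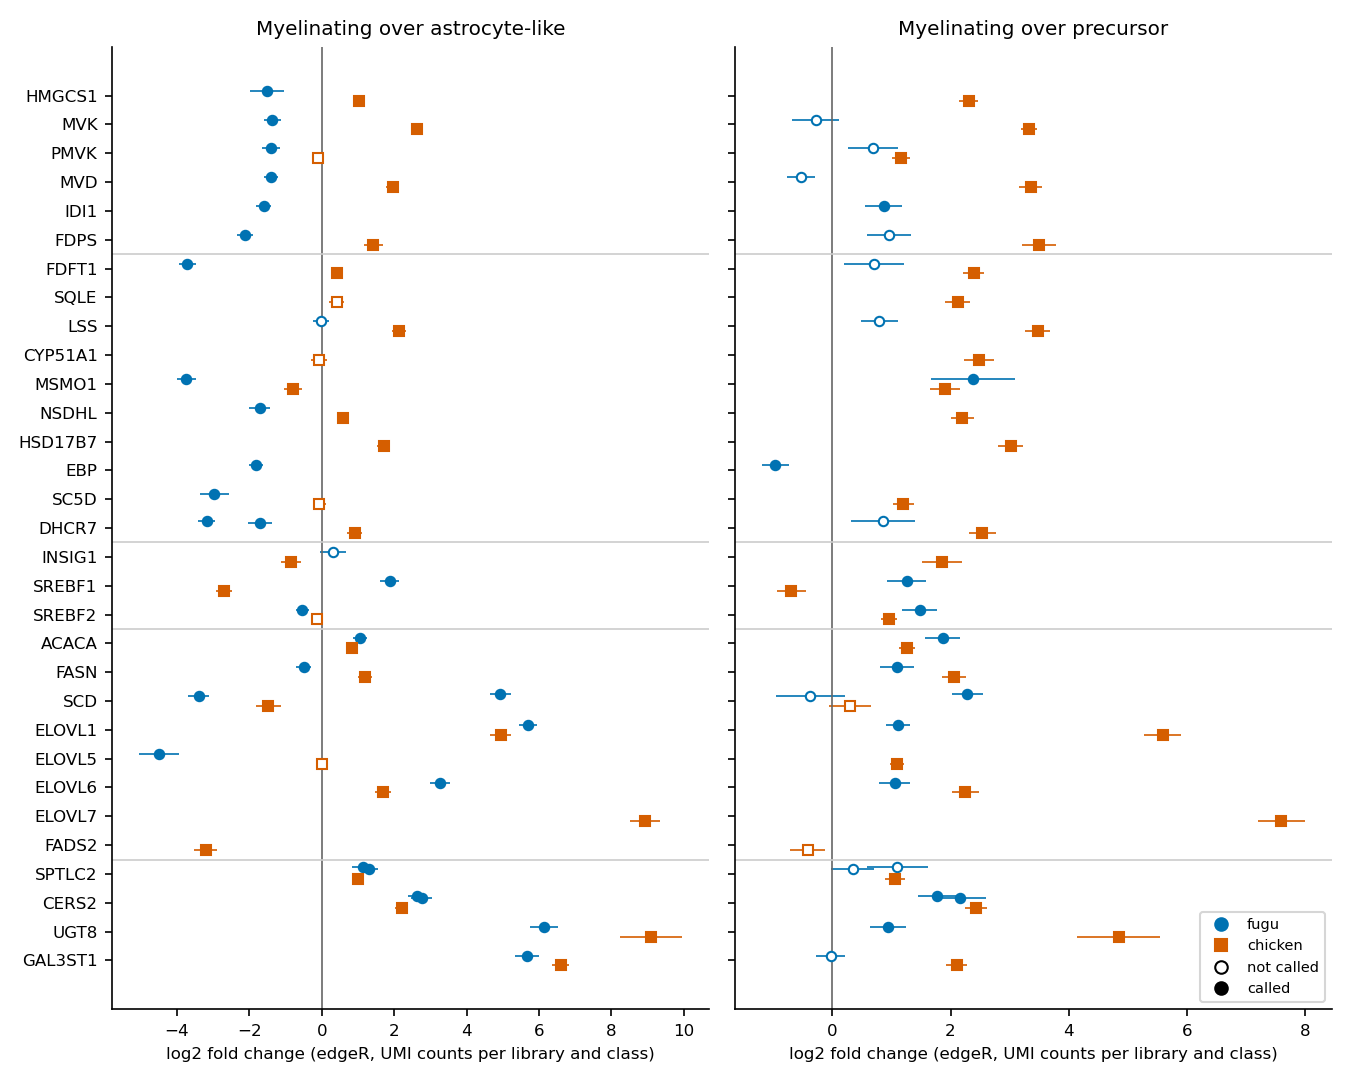
Log2 fold changes of the members for myelinating over astrocyte-like cells (left) and over precursors (right), with standard errors, in fugu (circles, 1 per copy) and chicken (squares). Filled symbols were called, and grey lines part the roles, from mevalonate (top) to sphingolipid (bottom). The 6 fugu members with at most 3 counts in committed precursors are left out on the right. In the left panel the upper fugu circles lie left of 0 and most chicken squares right of it, while in the bottom block both lie right of 0.

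The mevalonate genes were lower in fugu myelinating cells and, except for PMVK, higher in chicken ones. FDPS makes farnesyl pyrophosphate. In fugu, fdps stood at 52.5 and 61.3 CPM in myelinating cells, against 221 and 360 CPM in astrocyte-like cells (log2 fold change -2.13, SE 0.22, edgeR adjusted p = 1.71e-08). In chicken, FDPS stood at 1252 and 1136 CPM in myelinating cells, against 631 and 438 CPM in astrocyte-like cells (1.42, SE 0.26, edgeR adjusted p = 5.87e-05). The libraries of the 2 classes did not overlap in either species.

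HMGCS1, the synthase that makes HMG-CoA, stood in chicken at 1297 and 1232 CPM in myelinating cells, against 780 and 708 CPM in astrocyte-like cells (log2 fold change 1.03, SE 0.16). In fugu, hmgcs1 was a low gene, at 4.40 and 6.65 CPM in myelinating cells, against 16.4 and 20.3 CPM in astrocyte-like cells (-1.50, SE 0.47). The fugu call rests on few counts, 31 and 42 in myelinating cells, against 33 and 48 in astrocyte-like cells. It was lost without myelinating library 1 (-1.33) or astrocyte-like library 2 (-1.10), and with DESeq2 (-1.68).

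The kinase MVK showed the widest gap of this arm in chicken, with 307 and 303 CPM in myelinating cells, against 58.0 and 60.2 CPM in astrocyte-like cells (log2 fold change 2.63, SE 0.13). In fugu, mvk was lower, at 18.3 and 15.5 CPM in myelinating cells, against 40.6 and 61.3 CPM in astrocyte-like cells (-1.37, SE 0.24), and -0.81 without astrocyte-like library 2. MVD, the decarboxylase that closes the mevalonate steps, had 277 and 264 CPM in chicken myelinating cells, against 106 and 61.7 CPM in astrocyte-like cells (1.95, SE 0.18). Its fugu copy mvda had 76.2 and 62.7 CPM in myelinating cells, against 177 and 251 CPM in astrocyte-like cells (-1.40, SE 0.19), and -0.89 without astrocyte-like library 2. Each of these pairs of classes was separate in both libraries.

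PMVK, the next kinase, was not called in chicken (log2 fold change -0.11, SE 0.14), with 103 and 99.5 CPM in myelinating cells, against 145 and 118 CPM in astrocyte-like cells. With plain totals in place of TMM it was called lower (-0.38). In fugu, pmvk was lower, at 32.4 and 43.4 CPM in myelinating cells, against 101.1 and 134 CPM in astrocyte-like cells (-1.41, SE 0.25). The isomerase idi1, measured in fugu, was lower as well, at 70.6 and 86.5 CPM in myelinating cells, against 267 and 291 CPM in astrocyte-like cells (-1.60, SE 0.21).

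From squalene on, 7 of 8 tested fugu rows were lower in myelinating cells, among them sc5d, which passed the filter through its level in astrocyte-like cells. FDFT1, squalene synthase, had 17.6 and 22.5 CPM in fugu myelinating cells, against 239 and 377 CPM in astrocyte-like cells (log2 fold change -3.72, SE 0.24, edgeR adjusted p = 2.82e-12). The methylsterol oxidase msmo1 had 20.3 and 31.2 CPM in fugu myelinating cells, against 416 and 390 CPM in astrocyte-like cells (-3.74, SE 0.26, edgeR adjusted p = 1.66e-11). Free RNA held fdft1 at 33.7 and 47.9 CPM and msmo1 at 20.3 and 24.1 CPM. Myelinating cells thus lay below the level of free RNA for fdft1 and near or above it for msmo1. The part of free RNA in these counts was not tested.

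The share of cells with a UMI pointed the same way. After each cell was thinned to 3000 UMIs, msmo1 was found in 5.59% and 9.04% of fugu myelinating cells, against 54.6% and 56.8% of astrocyte-like cells. Without thinning the shares were 10.1% and 15.5%, against 71.5% and 74.2%. Neuron-like cells had it in 2.36% and 2.42% of thinned cells. The median depth was 5082 and 5077 UMIs in myelinating, 6152 and 6803 UMIs in astrocyte-like and 5113 and 5603 UMIs in neuron-like cells.

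In chicken, FDFT1 was close in the classes, at 310 and 295 CPM in myelinating cells, against 292 and 248 CPM in astrocyte-like cells (log2 fold change 0.43, SE 0.16, edgeR adjusted p = 0.0241). The call was lost without myelinating library 1 (0.40), without astrocyte-like library 2 (0.37), with DESeq2 (0.30) and with plain totals (0.16). MSMO1 was the 1 sterol gene called lower in chicken, at 512 and 458 CPM in myelinating cells, against 1120 and 895 CPM in astrocyte-like cells (-0.79, SE 0.24, edgeR adjusted p = 0.00577). It lost the call without astrocyte-like library 1 (-0.52), without doublet removal (-0.53), at clustering resolution 1.0 (-0.58), and when the AQP1-led cluster, which carries astrocyte markers, was counted as astrocyte-like (-0.20).

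LSS, the cyclase that forms lanosterol, was an exception in fugu. It had 68.99 and 72.8 CPM in myelinating cells, against 73.3 and 94.2 CPM in astrocyte-like cells, and was not called (log2 fold change -0.02, SE 0.21). In chicken it was higher, with 281 and 284 CPM in myelinating cells, against 93.9 and 60.7 CPM in astrocyte-like cells (2.13, SE 0.19). HSD17B7, which reduces a keto group during demethylation, also was higher in chicken, at 108 and 97.7 CPM in myelinating cells, against 39.2 and 35.9 CPM in astrocyte-like cells (1.72, SE 0.18). Its fugu row held 0 counts in myelinating, astrocyte-like and committed precursor cells.

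DHCR7, which reduces the sterol ring at the final stage, was lower in fugu and higher in chicken myelinating cells. In chicken it had 304 and 272 CPM in myelinating cells, against 214 and 155 CPM in astrocyte-like cells (log2 fold change 0.91, SE 0.22). Fugu has 2 rows named dhcr7. ENSTRUG00000003928 had 14.8 and 16.3 CPM in myelinating cells, against 156 and 175 CPM in astrocyte-like cells (-3.18, SE 0.24). ENSTRUG00000029034 had 10.4 and 5.86 CPM in myelinating cells, against 28.7 and 33.4 CPM in astrocyte-like cells (-1.70, SE 0.33). How alike the 2 rows are in sequence was not measured here, and the part of the mapping in their counts was not tested.

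NSDHL, a decarboxylating dehydrogenase, had 11.1 and 11.7 CPM in fugu myelinating cells, against 40.6 and 46.9 CPM in astrocyte-like cells (log2 fold change -1.71, SE 0.30). In chicken it had 159 and 160 CPM in myelinating cells, against 135 and 120 CPM in astrocyte-like cells (0.59, SE 0.17), a call lost with plain totals (0.32). The desaturase sc5d had 4.40 and 1.90 CPM in fugu myelinating cells, against 33.7 and 25.8 CPM in astrocyte-like cells (-2.96, SE 0.41). It fell under the filter without astrocyte-like library 1, so its test depended on its level in that class, and its call lends no support of its own. Chicken SC5D was not called, at 213 and 183 CPM in myelinating cells, against 274 and 224 CPM in astrocyte-like cells (-0.07, SE 0.17). The isomerase ebp, measured in fugu, had 86.7 and 92.3 CPM in myelinating cells, against 322 and 413 CPM in astrocyte-like cells (-1.81, SE 0.20).

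The remaining chicken sterol genes were not called. SQLE, the epoxidase that is a slow step of the pathway, had 295 and 255 CPM in myelinating cells, against 286 and 211 CPM in astrocyte-like cells (log2 fold change 0.41, SE 0.20, edgeR adjusted p = 0.0778). With the library as a block, the paired fit called it higher (0.42), as did leaving out astrocyte-like library 1 (0.75). SQLE was also called higher with a higher UMI minimum (0.46), without doublet removal (0.59), at resolution 1.0 (0.57) and with 20 principal components (0.61). The same held with the AQP1-led cluster counted as astrocyte-like (0.86) and with the PLLP-led cluster alone as myelinating (0.58). With plain totals it was not called (0.15). CYP51A1, the lanosterol demethylase, had 884 and 802 CPM in myelinating cells, against 1249 and 884 CPM in astrocyte-like cells (-0.08, SE 0.23). The chicken astrocyte-like libraries differed from each other by more than the myelinating ones for both genes.

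Of the regulators, SREBF1 was called in opposite directions in the species. In fugu, srebf1 was higher, at 83.9 and 110 CPM in myelinating cells, against 24.3 and 37.2 CPM in astrocyte-like cells (log2 fold change 1.87, SE 0.26). In chicken, SREBF1 was lower, at 15.8 and 13.3 CPM in myelinating cells, against 131 and 94.1 CPM in astrocyte-like cells (-2.70, SE 0.23, edgeR adjusted p = 2.02e-09). Both calls had classes without overlap.

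SREBF2 was not called in chicken, with 382 CPM in each myelinating library, against 562 and 447 CPM in astrocyte-like cells (log2 fold change -0.14, SE 0.13), though plain totals called it lower (-0.40). In fugu, srebf2 was lower, at 66.2 and 63.2 CPM in myelinating cells, against 95.6 and 124 CPM in astrocyte-like cells (-0.54, SE 0.18). That call was lost without myelinating library 2 (-0.50), astrocyte-like library 1 (-0.50) or astrocyte-like library 2 (-0.11). INSIG1 was lower in chicken, at 48.1 and 39.4 CPM in myelinating cells, against 115 and 73.3 CPM in astrocyte-like cells (-0.85, SE 0.29), a call lost without myelinating library 2 (-0.71), without astrocyte-like library 1 (-0.38), with 20 principal components (-0.57), without doublet removal (-0.60) and with the AQP1-led cluster counted as astrocyte-like (-0.32). In fugu it was not called, at 12.3 and 15.8 CPM in myelinating cells, against 9.91 and 16.5 CPM in astrocyte-like cells.

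Among the fatty acid genes, the elongases ELOVL1 and ELOVL6 were higher in myelinating cells of both species. ELOVL1, which extends saturated and monounsaturated acids to very long chains, had 413 and 491 CPM in chicken myelinating cells, against 18.1 and 17.3 CPM in astrocyte-like cells (log2 fold change 4.94, SE 0.29). In fugu, elovl1b had 975 and 963 CPM in myelinating cells, against 21.8 and 22.0 CPM in astrocyte-like cells (5.69, SE 0.25, edgeR adjusted p = 7.48e-15). Its copy elovl1a, too low to test, had 7.52 and 3.96 CPM in myelinating cells and no count in astrocyte-like cells.

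ELOVL7, another elongase of saturated chains, lay near 0 in chicken astrocyte-like cells. It had 333 and 336 CPM in myelinating cells, against 0.604 and 0.994 CPM in astrocyte-like cells (log2 fold change 8.94, SE 0.41). Fugu elovl7a had 0 counts in myelinating cells and 1 in astrocyte-like cells. ELOVL6, which extends palmitate to stearate, had 280 and 272 CPM in chicken myelinating cells, against 130 and 74.3 CPM in astrocyte-like cells (1.69, SE 0.22). In fugu, elovl6 had 576 and 678 CPM in myelinating cells, against 77.8 and 74.8 CPM in astrocyte-like cells (3.27, SE 0.27).

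Of the genes of polyunsaturated chains, fugu elovl5 and chicken FADS2 were lower in myelinating cells. ELOVL5 lengthens polyunsaturated acids. Fugu elovl5 had 0.142 and 0.950 CPM in myelinating cells, from 1 and 6 counts, against 17.3 and 14.4 CPM in astrocyte-like cells (log2 fold change -4.50, SE 0.54). It fell under the filter when either astrocyte-like library was left out. That row was thus tested because of its level in astrocyte-like cells, and its call lends no support of its own. Chicken ELOVL5 had 266 and 265 CPM in myelinating cells, against 311 and 321 CPM in astrocyte-like cells, and was not called (0.01, SE 0.12), though it was called higher with the AQP1-led cluster counted as astrocyte-like (0.37). FADS2, the desaturase of polyunsaturated acids, was lower in chicken, at 165 and 92.8 CPM in myelinating cells, against 1613 and 1243 CPM in astrocyte-like cells (-3.21, SE 0.31, edgeR adjusted p = 9.57e-09).

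ACACA, the carboxylase that makes malonyl-CoA, was higher in myelinating cells of both species. It had 153 and 145 CPM in chicken myelinating cells, against 102 and 99.8 CPM in astrocyte-like cells (log2 fold change 0.82, SE 0.13). Fugu acaca had 119 and 141 CPM in myelinating cells, against 66.4 and 79.5 CPM in astrocyte-like cells (1.06, SE 0.20). FASN, fatty acid synthase, split the species. It had 489 and 414 CPM in chicken myelinating cells, against 266 and 206 CPM in astrocyte-like cells (1.20, SE 0.19).

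Fugu fasn was lower, at 91.7 and 116 CPM in myelinating cells, against 165 and 179 CPM in astrocyte-like cells (log2 fold change -0.50, SE 0.20). That call was lost without myelinating library 1 (-0.45), astrocyte-like library 1 (-0.35) or astrocyte-like library 2 (-0.21), and without doublet removal (-0.48).

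The stearoyl-CoA desaturase copies of fugu lay on opposite sides. SCD makes oleate from stearate. Fugu scdb had 1425 and 1540 CPM in myelinating cells, against 39.6 and 73.5 CPM in astrocyte-like cells (log2 fold change 4.92, SE 0.29, edgeR adjusted p = 5.80e-13). Fugu scd had 7.81 and 11.1 CPM in myelinating cells, against 99.1 and 134 CPM in astrocyte-like cells (-3.40, SE 0.29, edgeR adjusted p = 3.95e-10). Chicken SCD, a single row, had 60.5 and 42.8 CPM in myelinating cells, against 231 and 112 CPM in astrocyte-like cells (-1.48, SE 0.34), a call lost without astrocyte-like library 1 (-0.76).

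**Figure D3:**
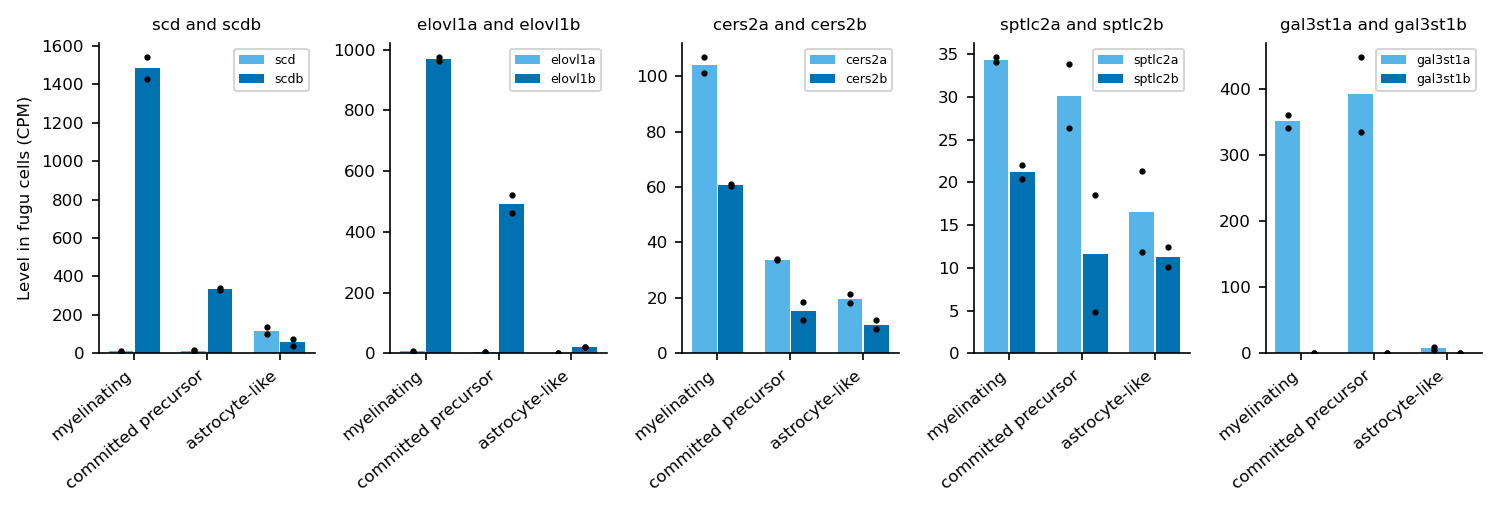
Levels in CPM (vertical axes) of 5 pairs of fugu copies in myelinating, committed precursor and astrocyte-like cells. Bars are means of 2 libraries and points are the libraries. scdb is high in myelinating cells (1425 and 1540 CPM) where scd is low (7.81 and 11.1 CPM), cers2a and cers2b are both highest in myelinating cells, and elovl1a and gal3st1b are near 0 throughout.

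The sphingolipid genes were higher in myelinating than in astrocyte-like cells in every tested row of both species. UGT8 had 3805 and 4171 CPM in chicken myelinating cells, against 6.30 and 11.2 CPM in astrocyte-like cells (log2 fold change 9.09, SE 0.86, edgeR adjusted p = 6.42e-09). Fugu ugt8 had 1858 and 1790 CPM in myelinating cells, against 31.7 and 28.7 CPM in astrocyte-like cells (6.14, SE 0.38, edgeR adjusted p = 1.80e-12). After thinning to 3000 UMIs, ugt8 was found in 98.7% and 98.6% of fugu myelinating cells, against 4.41% and 3.95% of astrocyte-like cells. Without thinning the shares were 99.5% and 99.6%, against 7.12% and 6.69%. After thinning it was also found in 11.8% and 10.9% of neuron-like cells. That class pools 3 clusters with unlike sphingolipid sums. They were 607 and 708 CPM in cluster 7, against 62.5 and 62.4 CPM in cluster 4 and 90.5 and 86.9 CPM in cluster 5. The neuron-like share was thus not taken as a background level.

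GAL3ST1 had 216 and 230 CPM in chicken myelinating cells, against 2.33 and 3.15 CPM in astrocyte-like cells (log2 fold change 6.60, SE 0.23). Fugu gal3st1a had 340 and 361 CPM in myelinating cells, against 5.45 and 10.1 CPM in astrocyte-like cells (5.68, SE 0.33). Its copy gal3st1b had 0 counts in myelinating cells and 1 in astrocyte-like cells. The size of the chicken contrasts depends on doublet removal. Without it, the log2 fold change was 4.56 for UGT8, 3.80 for GAL3ST1 and 4.62 for ELOVL7, all still called.

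CERS2 had 74.2 and 77.2 CPM in chicken myelinating cells, against 21.7 and 17.7 CPM in astrocyte-like cells (log2 fold change 2.21, SE 0.17). Both fugu copies were higher. In myelinating cells cers2a had 101.4 and 107 CPM, against 21.3 and 18.2 CPM in astrocyte-like cells (2.63, SE 0.25), and cers2b had 61.2 and 60.5 CPM, against 8.92 and 11.8 CPM in astrocyte-like cells (2.76, SE 0.30).

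SPTLC2, a subunit of the palmitoyltransferase that starts sphingolipid synthesis, changed least. It had 46.3 and 40.7 CPM in chicken myelinating cells, against 26.7 and 25.0 CPM in astrocyte-like cells (log2 fold change 1.01, SE 0.16). In fugu the fold change was 1.29 (SE 0.27) for sptlc2a, and 1.97 without astrocyte-like library 1. It was 1.14 (SE 0.31) for sptlc2b.

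Set side by side, 28 pairs of a fugu row and its chicken counterpart were tested in both species. Of these, 22 were called in both, 11 in the same direction and 11 in opposite directions. Over all 7230 pairs of rows with the same symbol tested in both species, 38.9% were called in both, and 33.3% of those lay in opposite directions, against 78.6% and 50% for the member pairs. All 4 mevalonate pairs called in both lay in opposite directions, as did 4 of 5 later sterol pairs, with MSMO1 lower in both. All 6 sphingolipid pairs lay in the same direction. Pairs are not separate genes, since chicken DHCR7, SCD, CERS2 and SPTLC2 each stand in 2 pairs, against 2 fugu rows. The difference between species was not itself tested, since the genes, ages and depths differ and the myelinating classes may differ in stage.

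Set against precursors, myelinating cells had more of nearly every member in chicken. In that comparison, 26 of 29 members were higher and 1 was lower, which is 89.7% and 3.45% of members, against 30.1% and 34.7% of all genes tested. The median member stood at 2.20, against -0.03 for all genes. All 5 mevalonate, all 9 later sterol and all 4 sphingolipid genes were higher. The widest contrasts were ELOVL7 at 333 and 336 CPM in myelinating cells, against 2.16 and 2.32 CPM in precursors (log2 fold change 7.60, SE 0.40). ELOVL1 had 413 and 491 CPM in myelinating cells, against 11.0 and 13.7 CPM in precursors (5.59, SE 0.31).

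UGT8 had 3805 and 4171 CPM in chicken myelinating cells, against 159 and 204 CPM in precursors (log2 fold change 4.85, SE 0.70). Among sterol genes, FDPS had 1252 and 1136 CPM in myelinating cells, against 136 and 141 CPM in precursors (3.49, SE 0.28). LSS had 281 and 284 CPM in myelinating cells, against 30.4 and 36.3 CPM in precursors (3.47, SE 0.21). These contrasts held the classes far apart in both libraries.

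The smallest sterol contrasts in chicken were PMVK (log2 fold change 1.16, SE 0.15) and SC5D (1.20, SE 0.18). MSMO1 and CYP51A1, level or lower against astrocyte-like cells, were higher here (1.91, SE 0.25, and 2.48, SE 0.25). FADS2 (-0.42, SE 0.29) and SCD (0.30, SE 0.36) were not called, though FADS2 was called lower with plain totals (-0.80) and without myelinating library 1 (-0.88). SREBF1 was lower, at 15.8 and 13.3 CPM in myelinating cells, against 34.4 and 26.2 CPM in precursors (-0.69, SE 0.24), a call lost without myelinating library 2 (-0.57) or precursor library 1 (-0.29), with a higher UMI minimum (-0.42), without doublet removal (-0.51) and at resolution 1.0 (-0.34).

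In fugu, the comparison was with committed precursors. There, 12 of 30 tested members were higher and 1 lower, which is 40.0% and 3.33%, against 11.9% and 12.3% of all genes tested. The median member stood at 1.07, against 0.16 for all genes. The precursor class held 105 cells, and 6 of the tested members had at most 3 counts in it. Fewer members were called higher without precursor library 1 or without myelinating library 2, and the share of all genes called higher fell as well. With 20 principal components, 2 members were higher, against 6.53% of all genes, and the committed precursor class grew to 265 cells. With the c1ql4b-led cluster as the precursor, 22 of 30 members were higher and 1 lower, against 24.8% and 24.5% of all genes tested. That cluster had sums of 306 and 298 CPM for the sterol arm, 392 and 481 CPM for the fatty acid arm and 524 and 577 CPM for the sphingolipid arm.

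The 2 members that kept their call in every alternative run were scdb and cers2a. Fugu scdb had 1425 and 1540 CPM in myelinating cells, against 338 and 329 CPM in committed precursors (log2 fold change 2.29, SE 0.27), with 1.36 at 20 principal components and 4.63 over the c1ql4b-led cluster. Next, cers2a had 101.4 and 107 CPM in myelinating cells, against 33.5 and 33.9 CPM in committed precursors (1.77, SE 0.32), with 0.98 at 20 principal components and 5.06 over the c1ql4b-led cluster. The isomerase ebp was the 1 member called lower, at 86.7 and 92.3 CPM in myelinating cells, against 199 and 185 CPM in committed precursors (-0.96, SE 0.23). Over the c1ql4b-led cluster, at 34.8 and 36.6 CPM, it was called higher (1.87).

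Galactolipid enzymes were also high in fugu committed precursors, a class that carried many myelin transcripts. The myelin marker list summed to 40160 and 37120 CPM there, against 137700 and 138800 CPM in myelinating cells. The part of these transcripts in the values was not tested. Fugu ugt8 had 1858 and 1790 CPM in myelinating cells, against 1015 and 1077 CPM in committed precursors (log2 fold change 0.93, SE 0.30, edgeR adjusted p = 0.0261). The call was lost when any 1 of the 4 class-by-library sums was left out (0.84 to 1.03), with a higher UMI minimum (0.57), and with 20 principal components, where the sign turned (-0.04). It was also lost with DESeq2 and with plain totals. The c1ql4b-led cluster had ugt8 at 323 and 353 CPM, and over it the fold change was 2.97. Fugu gal3st1a had 340 and 361 CPM in myelinating cells, against 448 and 335 CPM in committed precursors, and was not called (-0.03, SE 0.25). That difference is smaller than its SE. Over the c1ql4b-led cluster, gal3st1a was called higher (1.51). Of the sterol enzymes, msmo1 (2.37, SE 0.71) and idi1 (0.87, SE 0.32) were called higher, msmo1 from 1 and 3 counts in committed precursors. The msmo1 call was lost without myelinating library 2 (2.03) or precursor library 1 (1.55) and with a higher UMI minimum (1.34), and the sign turned with 20 principal components (-0.37). The idi1 call was lost without myelinating library 2 (0.71), precursor library 1 (0.58) or precursor library 2 (1.13), and its value was -0.01 with 20 principal components. It was also lost with DESeq2, plain totals, a higher UMI minimum, lipid genes among the variable features, and only the 2 classes fitted.

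Cycling and non-cycling precursors of chicken were compared next. The cycling class takes in cycling clusters named by precursor or by committed precursor markers. For the rows from squalene on, non-cycling committed precursors had 431 and 548 CPM and cycling precursors 388 and 424 CPM. Precursors had 769 and 820 CPM. For sphingolipid rows the sums were 813 and 864 CPM, 656 and 725 CPM, and 268 and 320 CPM, in that order. Committed and cycling precursors thus differed from precursors in the same direction. In cycling precursors, 2 of 29 members were higher and 15 lower than in non-cycling precursors, which is 6.90% and 51.7%, against 18.5% and 35.7% of all genes tested. The median member stood at -0.63, against -0.21 for all genes. All 9 genes from FDFT1 to DHCR7 were lower. Of these, 7 lost the call in at least 1 alternative, namely CYP51A1, SQLE, FDFT1, NSDHL, HSD17B7, LSS and DHCR7, and FDFT1 stood at 0.04 at resolution 1.0, while MSMO1 and SC5D kept it in those run. The 2 classes compared also differed in marker lists other than the cycling one. Myelin markers summed to 2667 and 2806 CPM in cycling precursors, against 580 and 749 CPM in precursors, and precursor markers to 9856 and 9995 CPM, against 16460 and 16080 CPM. The median depth was 16957 and 17492 UMIs in cycling precursors, against 10941 and 11784 UMIs in precursors, and the part of depth and of these markers in the values was not tested. MSMO1 had 49.1 and 55.6 CPM in cycling precursors, against 157 and 180 CPM in precursors (log2 fold change -1.81, SE 0.25). SC5D had 42.1 and 40.6 CPM in cycling precursors, against 114 and 110 CPM in precursors (-1.56, SE 0.19).

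HMGCS1 had 151 and 171 CPM in cycling precursors, against 317 and 350 CPM in precursors (log2 fold change -1.17, SE 0.16). SREBF2 had 116 and 124 CPM in cycling precursors, against 259 and 253 CPM in precursors (-1.22, SE 0.14). FADS2 had 45.8 and 49.4 CPM in cycling precursors, against 232 and 216 CPM in precursors (-2.36, SE 0.31). FDPS (-0.08, SE 0.26) and MVK (0.18, SE 0.13) were not called. Higher in cycling precursors were ELOVL7 (2.06, SE 0.49), at 11.5 and 8.92 CPM in cycling precursors, against 2.16 and 2.32 CPM in precursors, and SPTLC2 (0.93, SE 0.17), at 63.7 and 48.9 CPM in cycling precursors, against 27.6 and 26.6 CPM in precursors. Both calls were lost at resolution 1.0 (1.11 for ELOVL7 and 0.25 for SPTLC2). UGT8 had 492 and 573 CPM in cycling precursors, against 159 and 204 CPM in precursors, and was not called (1.43, SE 0.61, edgeR adjusted p = 0.0533). It was called higher with the library as a block, the paired fit (1.45), and in 6 other alternatives (1.47 to 1.62), and stood at 0.66 at resolution 1.0.

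The count of lower members fell when single libraries were left out and at resolution 1.0, and so did the share of all genes called lower. At resolution 1.0, 7 members were lower, with 17.4% of all genes, against 35.7% of all genes in the main fit. Of the 17 called members, 7 kept the call in every alternative run, among them MSMO1, SC5D, HMGCS1, SREBF2 and FADS2. At resolution 1.0 these 5 were smaller, at -0.82 for MSMO1, -0.86 for SC5D, -0.48 for HMGCS1, -0.63 for SREBF2 and -1.25 for FADS2. The 2 cycling clusters were not alike. Cluster 12, which shares SERAF, PDGFRA and AKR1D1 with the precursor cluster among its leading genes, had SREBF2 at 160 and 173 CPM, and cluster 5, led by mitosis genes, had it at 109 and 118 CPM.

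Over the chicken lineage clusters, the sterol and sphingolipid sums differed in pattern. The sterol sum was 1354 and 1443 CPM in precursor cluster 7, 991 and 1002 CPM in cycling cluster 12, 768 and 873 CPM in cycling cluster 5, 895 and 1063 CPM in committed cluster 1, 1156 and 1519 CPM in committed cluster 9, 1885 and 2010 CPM in the unnamed cluster 2, and 5022 and 5099 CPM in myelinating cluster 8. It was 7618 and 6447 CPM in myelinating cluster 6. The sum was thus lowest in cluster 5 and highest in cluster 6.

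The sphingolipid sum was 268 and 320 CPM in cluster 7 and 285 and 397 CPM in cluster 12. It was 716 and 768 CPM in cluster 5, 696 and 723 CPM in cluster 1, 1076 and 1209 CPM in cluster 9 and 1785 and 1885 CPM in cluster 2. In the myelinating clusters it was 3279 and 3559 CPM in cluster 8 and 5028 and 5304 CPM in cluster 6. In cluster 5 the sphingolipid sum was thus higher than in cluster 7 and the sterol sum lower. These clusters were placed by hand from precursor to myelinating names and not by time, and they share libraries. The names do not rank clusters of the same name or the unnamed cluster 2. ENPP6 was among the leading genes of cluster 6, and ERMN and MBP among those of cluster 8. Which of these 2 comes later was not tested.

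Single members parted from their arm. ELOVL7 had 234 and 240 CPM in cluster 2, 370 and 380 CPM in cluster 8 and 296 and 300 CPM in cluster 6. ELOVL1 had 62.3 and 55.3 CPM in cluster 2, 227 and 266 CPM in cluster 8 and 604 and 675 CPM in cluster 6. ELOVL7 was thus highest in cluster 8, and ELOVL1 in cluster 6. With the PLLP-led cluster 6 alone as the myelinating class, 19 members were higher and 5 lower than in astrocyte-like cells, against 33.2% and 36.5% of all genes in that fit.

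**Figure D4:**
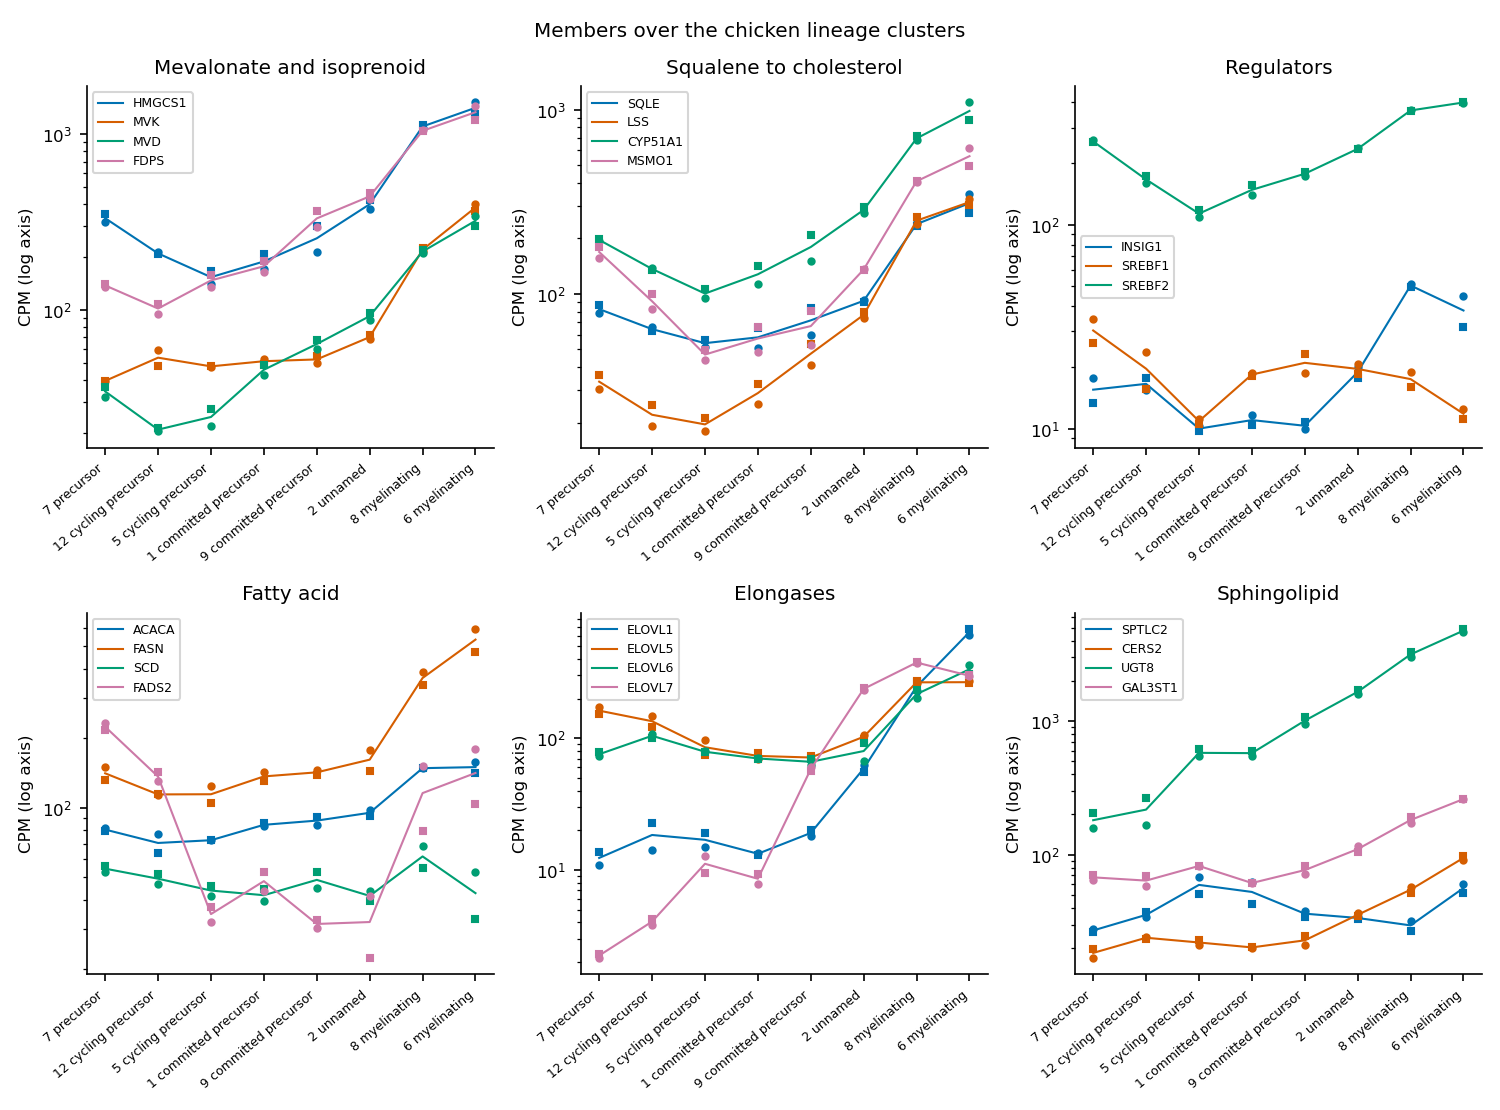
Levels in CPM (vertical log axes) of 23 members over 8 chicken lineage clusters (horizontal axes), placed by hand from precursor to myelinating names. The order of clusters of the same name, and of the unnamed cluster, was not tested. Circles are library 1, squares library 2, and lines join the means of 2 libraries. LSS and MSMO1 are lowest in cycling cluster 5 and highest in myelinating cluster 6, UGT8 is highest in cluster 6 (4615 and 4893 CPM), and SREBF1 is lower in cluster 6 (12.5 and 11.1 CPM) than in cluster 7 (34.4 and 26.2 CPM).

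Other lipid genes, in lists kept apart from the members, were counted in the same comparison of myelinating with astrocyte-like cells, where 23.5% of all genes were higher and 27.1% lower in fugu, and 33.2% and 36.8% in chicken. Of other sterol genes, 1 of 10 tested was higher and 3 lower in fugu, and 8 of 17 were higher and 5 lower in chicken. Of other fatty acid genes, 8 of 15 were higher and 3 lower in fugu, and 4 of 12 higher and 5 lower in chicken. Other sphingolipid genes were 2 higher and 5 lower of 15 in fugu, and 8 higher and 8 lower of 18 in chicken. The 5 ether lipid genes were 3 higher and 2 lower in fugu, and 2 higher and 1 lower in chicken.

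Among these genes, the 8 with the largest smaller fold change of those called in the same direction in both species were named. HACD1 and HACD2, the dehydratases of fatty acid elongation, were higher, by log2 fold changes of 3.84 and 2.51 in fugu and 1.63 and 1.61 in chicken. DEGS1, which desaturates dihydroceramide, was higher by 2.56 in fugu and 1.496 in chicken. ASPA, which in mammals frees acetate from N-acetylaspartate in oligodendrocytes, was lower in myelinating than in astrocyte-like cells, at -4.76 in fugu and -6.95 in chicken.

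Also lower in both were ME1, a source of NADPH, at -4.57 in fugu and -3.13 in chicken, and CERS1, a ceramide synthase of shorter chains, at -2.49 and -2.61. The cholesterol exporter ABCA1 stood at -1.54 in fugu (abca1a) and -2.32 in chicken. GNPAT, which opens ether lipid synthesis, stood at -3.88 in fugu and -1.07 in chicken.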

How the data were processed

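Spinal cord cells of fugu and chicken were profiled with 10x 3' chemistry. The authors deposited counts of unique molecular identifiers per gene and barcode, made with Cell Ranger 7.2.0, and fugu reads were mapped to Takifugu rubripes, which may lower counts of diverged copies. From these counts, barcodes were filtered by UMI minimum, doublets were removed with scanpy 1.11.5 (Scrublet, with an expected rate set by the number of barcodes), and cells were clustered per species with Seurat 5.3.0 (2000 variable features without the lipid genes, 10 components, resolution 0.5). Clusters were named from fixed markers. The naming rule was altered once after the clusters had been seen. Counts were summed per library and class and tested with edgeR 4.0.16 (R 4.3.3, TMM, quasi-likelihood), with DESeq2 1.42.0 as an alternative. Genes averaging under 5 CPM were left out, and the thresholds for a call were 0.05 on the adjusted p and 0.25 on the log2 scale. All classes of a species shared the fit.

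The members and lists were chosen with earlier results of these data known. Each matched member is described, and of other lipid genes the 8 called in the same direction in both species with the largest smaller fold change. Each library supplies every class from one pool of animals, so libraries pair the classes, and deviations of paired sums correlated at 0.233, 0.131, 0.242, 0.196 and 0.372 in the 5 comparisons (fugu over astrocyte-like cells and precursors, chicken likewise, cycling precursors). The test was tried on simulated counts with 4-fold changes in the myelinating sums. For fugu over precursors it found 82% of raised and 56% of lowered genes. In the other comparisons of myelinating cells it found 92% to 100%. The simulated counts had a common spread for all genes and no library effect. Apart from the changed genes, their classes had the same mean levels. These shares thus need not hold for the real sums. Plain totals, the AQP1-led cluster, the PLLP-led cluster and the c1ql4b-led cluster as fugu precursor were alternatives chosen after seeing the data. Other alternatives covered DESeq2, filters, UMI minimum, doublets, clustering, samples in the fit and each library left out. Intervals of counts were not used, and p-values measure the spread between 2 pooled libraries. Mudskipper was not analysed here.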

Additional observations from a re-analysis of the deposited data

Results flagged for a closer look

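For 11 pairs of a fugu row and its chicken counterpart called in both species, the difference between myelinating and astrocyte-like cells ran in opposite directions in the 2 species, in both libraries of each. The difference between species was not tested. In log2 fold changes of myelinating over astrocyte-like cells, HMGCS1 stood at -1.50 in fugu and 1.03 in chicken, MVK at -1.37 and 2.63, MVD (mvda in fugu) at -1.40 and 1.95, and FDPS at -2.13 and 1.42. FDFT1 stood at -3.72 in fugu and 0.427 in chicken, and NSDHL at -1.71 and 0.586. The fugu rows of dhcr7 stood at -1.70 and -3.18, and chicken DHCR7 at 0.907. FASN stood at -0.501 in fugu and 1.20 in chicken. The sign was turned for SREBF1, at 1.87 in fugu and -2.70 in chicken, and for scdb, at 4.92 in fugu, against -1.48 for chicken SCD. LSS stood at 2.13 in chicken. In fugu it was not called, at -0.02 (SE 0.21), and had no clear direction, with 0.41 without astrocyte-like library 2. The other fugu copy, scd, lay on the chicken side at -3.40. Among the opposite pairs, the calls of fugu hmgcs1 and fasn and of chicken FDFT1, NSDHL and SCD did not hold in every alternative run.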

How the results depend on the processing

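In the alternatives run, 25 of 28 called members kept their call in fugu and 18 of 23 in chicken for myelinating over astrocyte-like cells, 2 of 13 and 26 of 27 over precursors, and 7 of 17 for cycling over other precursors, counted where they were tested. In fugu sc5d and elovl5 fell under the filter without astrocyte-like library 1, elovl5 also without library 2, and 21 of 30 members passed the filter of 20 CPM. Leaving out 1 class sum at a time gave 11 higher and 13 to 16 lower members for fugu myelinating over astrocyte-like cells, and 17 to 19 higher and 2 to 5 lower in chicken. Over precursors it gave 6 to 12 higher and 1 lower in fugu, and 26 higher and 0 to 2 lower in chicken. For cycling precursors it gave 2 higher and 9 to 11 lower. In these fits the share of all genes called lower fell as well, in every comparison. The share of all genes called higher fell for fugu over precursors and rose for cycling precursors. In the other comparisons it fell without either myelinating library. Without a library of the other class it did not fall in every fit. The library as a block pairs classes from the same animals. It gave 11 higher and 17 lower members in fugu over astrocyte-like cells, against 26.8% and 28.9% of all genes. In chicken these were 19 and 5, against 35.1% and 38.7%. Over precursors the block gave 14 and 1 in fugu, against 13.4% and 13%, and 26 and 1 in chicken, against 32.4% and 36.6%. In cycling precursors it gave 3 and 17, against 21% and 39.6%. With 20 principal components, 2 members were higher over fugu precursors, and fasn (-0.257), msmo1 (-0.370), ugt8 (-0.0448) and idi1 (-0.0116) turned sign, in a precursor class of 265 cells. With the c1ql4b-led cluster as the fugu precursor, 22 were higher, and ebp (1.87), gal3st1a (1.51) and elovl5 (-3.10) turned sign. At resolution 1.0, 0 members were higher and 7 lower in cycling precursors, against 7.68% and 17.4% of all genes, and FDFT1 turned to 0.0381. There 0 members were lower over chicken precursors, against 34.8% of all genes. That count was also 0 with a higher UMI minimum (31.3% of all genes) and without doublet removal (31%), and 2 with plain totals (49.7%). Without doublet removal 3 members were lower than in chicken astrocyte-like cells (33.3% of all genes), as when the AQP1-led cluster was counted among them (35.6%). Fitting only the 2 classes compared gave 2 lower over fugu precursors (16.5% of all genes), as plain totals did (14.1%). It gave 6 higher in cycling precursors (30.3%), where a higher UMI minimum gave 4 (26.6%). Where no cause is named, the cause was not tested. No value for fugu precursors was had without doublet removal, since no committed precursor class was named there.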
